A study of Mus musculus with 8 samples.

Results

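Klf2, Klf3, Klf4, Klf6, Klf7, Klf9, Klf10, Klf11, Klf12 and Klf13 encode Kruppel-like factors and were taken from the deposited count table by name, giving 10 genes of the 47937 in the table. RNA had been sequenced from sorted CD8 single-positive (CD8SP), TCRb+, MHC-I high thymocytes, which are late-stage CD8 T cells of the thymus, with 1 library per mouse from 4 Ndrg3ctrl and 4 Ndrg3TKO mice aged 6 to 7 weeks. Ndrg3TKO mice were Ndrg3 fl/fl;Lck-cre+ and Ndrg3ctrl mice were Ndrg3 +/fl;Lck-cre+, so every mouse carried the Cre, driven by the proximal Lck promoter from an early thymocyte stage. The control mice thus also held a floxed allele open to deletion, beside an intact allele, and the comparison is not with wild-type cells. Of the 10 Klf genes, Klf6 rose in Ndrg3TKO, Klf2 had a lower mean in Ndrg3TKO without passing the threshold, and the other 8 had 95% intervals of the log2 fold change that included 0.

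Kruppel-like factors are transcription factors whose carboxy-terminal C2H2 zinc fingers bind CACCC-type and GC-rich DNA, so that members with different partner domains compete for similar sites. In T cells Klf2 maintains quiescence and activates S1pr1, which allows mature thymocytes to leave the thymus. Several other members, among them Klf4, Klf6 and Klf10, are known as early response genes in many cell types.

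Ndrg3, the targeted gene, averaged 2334 ± 28.9 normalized counts (SD, n = 4) in Ndrg3ctrl and 1499 ± 87.1 (SD, n = 4) in Ndrg3TKO, with no overlap between the groups and a log2 fold change of −0.64. The gene-level count includes exons outside the deleted one. Totals ran from 21126698 to 32668081 counts per library, with the smallest in Ndrg3ctrl 2, and 3 counts corresponded to between 0.0918 and 0.142 CPM, the count scaled to sequencing depth. Transcripts of 4 Y-linked genes were present at 353 to 413 CPM in Ndrg3ctrl 2, Ndrg3TKO 2 and Ndrg3TKO 3 and at no more than 0.0731 CPM elsewhere. The 8 markers of CD8 T cells, Cd8a and Cd3e among them, were abundant, with log2 fold changes of −0.13 to 0.11. Of the defining markers of other cells, Ms4a1, Tek and the 4 erythroid genes had 0 counts in every library. Others were present. For the endothelial list the sum was 154 to 177 CPM in Ndrg3ctrl and 147 to 161 CPM in Ndrg3TKO, mostly from Pecam1 with 3240 to 5230 counts. Epcam had 39 to 77 counts, and the myeloid and epithelial lists reached at most 1.33 and 3.04 CPM in a library. The B cell list summed to 11.1 to 13.2 CPM in Ndrg3ctrl and 8.41 to 9.42 CPM in Ndrg3TKO, mostly from Cd79b. The double-positive thymocyte list summed to 46.6 to 54.8 CPM in Ndrg3ctrl and 46.1 to 55.7 CPM in Ndrg3TKO, mostly from Cd1d1 and Dntt, and of its members Dntt lay higher in Ndrg3TKO without overlap (log2 fold change 0.45, adjusted p = 0.0783 by edgeR). Foxp3 had a log2 fold change of 0.53 (adjusted p = 0.293, edgeR) and Cdh5 of −0.64 without overlap (adjusted p = 0.244, edgeR). The 4 genes of the innate-like T cell list moved in different directions. Klrb1c, which encodes NK1.1, rose by 2.62 on the log2 scale (adjusted p = 0.00149, edgeR), and Trdc had −0.031. Zbtb16, which encodes the NKT cell factor PLZF and was too low to be tested, had 10, 6, 6 and 4 counts in Ndrg3ctrl and 2, 1, 1 and 3 in Ndrg3TKO, without overlap, and Sox13, also not tested, averaged 8.26 and 4.84 normalized counts. The summed innate-like list, mostly Trdc, spanned 10.9 to 14.5 CPM in Ndrg3ctrl and 12.1 to 15.96 CPM in Ndrg3TKO. The part of these cells in the Klf results was not tested, and in bulk RNA fewer cells expressing a gene and less RNA per cell cannot be told apart.

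The sequences shown first are those of the zinc-finger coding region, the part that the members share, for the members that stood apart (Klf6 and Klf2) and the closest relative of each (Klf7 and Klf4). Each runs 5′ to 3′ on the coding strand from the first zinc-holding cysteine codon to the last histidine codon, over 243 bases, and the capitals mark the cysteine and histidine codons that hold zinc. They were read from GENCODE M21 transcripts (GRCm38).
Klf6: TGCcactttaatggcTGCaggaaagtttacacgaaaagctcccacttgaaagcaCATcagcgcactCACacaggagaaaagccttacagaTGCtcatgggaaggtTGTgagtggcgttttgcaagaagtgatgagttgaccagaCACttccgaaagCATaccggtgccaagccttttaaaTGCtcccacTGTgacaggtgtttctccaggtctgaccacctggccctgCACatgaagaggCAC
Klf7: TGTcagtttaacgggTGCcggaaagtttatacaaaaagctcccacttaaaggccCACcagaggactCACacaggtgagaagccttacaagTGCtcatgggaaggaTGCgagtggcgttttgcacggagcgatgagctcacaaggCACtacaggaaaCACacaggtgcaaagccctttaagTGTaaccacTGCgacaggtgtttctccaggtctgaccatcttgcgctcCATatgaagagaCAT
Klf2: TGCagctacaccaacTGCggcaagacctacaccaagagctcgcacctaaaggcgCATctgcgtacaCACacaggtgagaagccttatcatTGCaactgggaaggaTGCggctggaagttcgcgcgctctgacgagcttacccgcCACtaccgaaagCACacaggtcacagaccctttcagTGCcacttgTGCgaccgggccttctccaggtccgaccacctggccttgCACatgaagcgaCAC
Klf4: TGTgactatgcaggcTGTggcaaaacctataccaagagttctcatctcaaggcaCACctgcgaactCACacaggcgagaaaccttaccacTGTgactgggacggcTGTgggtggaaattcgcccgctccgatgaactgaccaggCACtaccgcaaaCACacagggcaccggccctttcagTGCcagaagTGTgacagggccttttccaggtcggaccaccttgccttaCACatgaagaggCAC

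In the genome these coding bases are split by introns. Those of Klf6 lie on the plus strand of chromosome 13 in coding exons at chr13:5865272-5865344, chr13:5866639-5866762 and chr13:5867232-5867277. Those of Klf7 lie on the minus strand of chromosome 1 at chr1:64078707-64078779, chr1:64042314-64042437 and chr1:64035719-64035764. The Klf2 bases are in 2 coding exons, chr8:72320170-72320242 and chr8:72320744-72320913 on the plus strand, and the Klf4 bases in 2, chr4:55529718-55529790 and chr4:55528131-55528300 on the minus strand. Over the 243 bases Klf6 and Klf7 were identical at 197 (81.1%), the highest of the 45 pairs, Klf2 and Klf4 at 190 (78.2%), and Klf2 and Klf6 at 168 (69.1%). Across the 45 pairs the identity ran from 57.2% to 81.1%.

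Shared bases of this kind could split or double-assign reads between members, depending on the counting. The longest run of identical bases anywhere in the transcripts of a pair had a median of 14 over the 45 pairs and a maximum of 41, between Klf3 and Klf12 and outside the fingers. Klf6 and Klf7 shared at most 26 consecutive bases and Klf2 and Klf4 at most 14. Klf2, Klf4, Klf6, Klf10 and Klf11 overlap no other annotated gene. Klf3 overlaps C230096K16Rik on its own strand, whose counts came to 8.03% of those of Klf3, and Gm20033 on the opposite strand, at 2.07%, so the count of Klf3 carries that uncertainty.

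Klf6, a broadly expressed activator that is induced early in many stimulated cells, was the member that changed. The gene lies on chromosome 13 from 5861482 to 5870394 on the plus strand (GRCm38). Its normalized counts, which are counts divided by the effective library size and scaled to the mean library total, were 1456, 1431, 1348 and 1161 in Ndrg3ctrl 1 to 4 and 1897, 1904, 1727 and 1745 in Ndrg3TKO 1 to 4. Every Ndrg3TKO library lay above every Ndrg3ctrl library. The mean was 1349 ± 134 (SD, n = 4) in Ndrg3ctrl and 1818 ± 95.3 (SD, n = 4) in Ndrg3TKO, a fold change of 1.35 (95% interval 1.21 to 1.498) and a log2 fold change of 0.43 with a standard error of 0.0708. Tested by quasi-likelihood in edgeR and adjusted by Benjamini-Hochberg over 14633 genes, the adjusted p was 0.00627. The groups kept apart both among the libraries with Y-linked counts (1431 against 1904 and 1727) and among those without (1161 to 1456 against 1897 and 1745). Leaving out single libraries gave log2 fold changes between 0.36 and 0.47, with an adjusted p between 0.00586 and 0.0335.

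Klf2 (chromosome 8 from 72319033 to 72321656, plus strand), the regulator of T cell quiescence and egress, had 9595, 10627, 8539 and 9697 normalized counts in Ndrg3ctrl 1 to 4 and 8140, 8916, 7441 and 7694 in Ndrg3TKO 1 to 4. Ndrg3TKO 2 lay above Ndrg3ctrl 3, so the groups overlapped, although the other 3 Ndrg3TKO libraries were below every Ndrg3ctrl library. The means were 9614 ± 855 and 8048 ± 647 (SD, n = 4 each), a fold change of 0.837 (95% interval 0.753 to 0.931) and a log2 fold change of −0.26 with a standard error of 0.0711. The adjusted p was 0.130 (edgeR, Benjamini-Hochberg), so Klf2 was not called, and with a library left out it ranged from 0.0555 to 0.368. The call depended on the fit. With the presence of Y-linked counts as a term the log2 fold change was −0.28 and the adjusted p 0.0323, where 2.99% of all tested genes were called, and with no filter on low counts −0.25 and 0.0207, where 1.11% were. Among the libraries without Y-linked counts Klf2 was 8539 to 9697 in Ndrg3ctrl and 8140 and 7694 in Ndrg3TKO, and among those with them 10627 against 8916 and 7441.

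**Figure D1:**
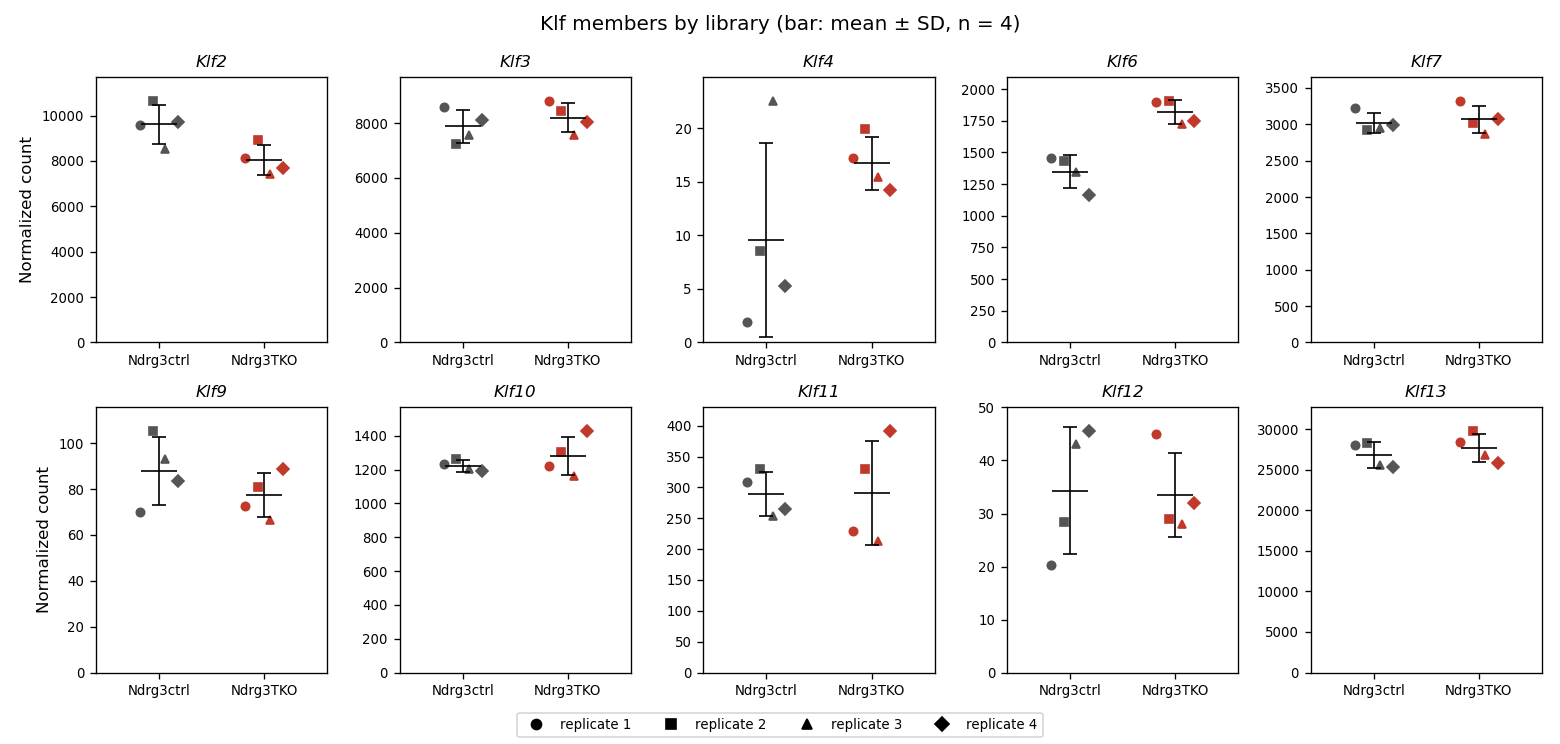
Normalized count (y axis, from 0) of each of the 10 Klf genes in the 4 Ndrg3ctrl (grey) and 4 Ndrg3TKO (red) libraries. Each symbol is 1 library and its shape the replicate number, and the bars give mean ± SD. Klf6 was 1161 to 1456 in Ndrg3ctrl and 1727 to 1904 in Ndrg3TKO, with no overlap.

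Set against each other within a library, the count of Klf2 was 6.59, 7.43, 6.33 and 8.35 times that of Klf6 in Ndrg3ctrl 1 to 4 and 4.29, 4.68, 4.31 and 4.41 times in Ndrg3TKO 1 to 4. The ratios of the groups did not overlap. This ratio was chosen after the values were seen, is not adjusted for gene length and was not tested.

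Klf13, which activates Ccl5 in T lymphocytes, had the highest counts of the 10, with 28031, 28253, 25547 and 25338 in Ndrg3ctrl and 28450, 29708, 26797 and 25799 in Ndrg3TKO. The groups overlapped almost fully. The log2 fold change was 0.047 (95% interval −0.097 to 0.19, adjusted p = 0.853 by edgeR).

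Klf3, a repressor that recruits the CtBP corepressor, had 8603, 7226, 7571 and 8126 normalized counts in Ndrg3ctrl and 8797, 8428, 7557 and 8025 in Ndrg3TKO. Its groups overlapped and its log2 fold change was 0.057 (95% interval −0.080 to 0.19). Klf12, another CtBP-binding repressor, was scarce, with 20.4, 28.4, 43.1 and 45.5 in Ndrg3ctrl and 45.0, 29.1, 28.0 and 32.0 in Ndrg3TKO. The spread within Ndrg3ctrl exceeded the difference between the means, and the interval of the log2 fold change was wide, −0.64 to 0.55.

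Klf10, first known as a TGF-beta-inducible early gene, had 1231, 1262, 1200 and 1189 normalized counts in Ndrg3ctrl and 1222, 1306, 1162 and 1425 in Ndrg3TKO. Ndrg3TKO 4 was the highest library, the groups overlapped, and the log2 fold change was 0.068 (95% interval −0.074 to 0.21). Its close relative Klf11, which recruits the Sin3a corepressor, had 309, 330, 254 and 265 in Ndrg3ctrl and 230, 330, 213 and 391 in Ndrg3TKO. Ndrg3TKO 4 again stood highest and Ndrg3TKO 3 lowest, and the log2 fold change was 0.013 (95% interval −0.37 to 0.40). Klf9, a glucocorticoid- and thyroid-hormone-responsive repressor, had 69.8, 105, 93.0 and 83.6 in Ndrg3ctrl and 72.8, 80.8, 66.6 and 88.8 in Ndrg3TKO. These ranges overlapped too, with a log2 fold change of −0.17 (95% interval −0.54 to 0.19).

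Klf7, the relative of Klf6 needed in neuronal development, had 3225, 2919, 2953 and 2991 normalized counts in Ndrg3ctrl and 3316, 3021, 2863 and 3071 in Ndrg3TKO. Unlike those of Klf6, its groups overlapped, and the interval of its log2 fold change (−0.097 to 0.14) lay below that of Klf6 (0.28 to 0.58), a difference that was not itself tested. Klf4, a restraint on CD8 T cell proliferation and a reprogramming factor, was scarce, with 2, 6, 23 and 5 counts in Ndrg3ctrl and 18, 22, 16 and 16 in Ndrg3TKO. Ndrg3ctrl 3 was above every Ndrg3TKO library and the other 3 Ndrg3ctrl libraries below them. The log2 fold change of 0.78 had an interval from −0.28 to 1.84 (adjusted p = 0.612, edgeR). Without Ndrg3ctrl 3 it was 1.74 (adjusted p = 0.130, edgeR), so that library lowered the value. Without any other single library it was between 0.42 and 0.85, the lowest being without Ndrg3ctrl 1.

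All 10 Klf genes passed the filter on low counts, and 1 of them was called, against 1.15% of all tested genes (0.793% called higher). At an unadjusted p below 0.05 there were 2 of 10, against 10.9% of all tested genes, and the groups did not overlap for 1 of 10, against 7.04%. That member had the higher values in Ndrg3TKO, as 3.44% of all tested genes did without overlap, and 0 members had lower values without overlap, against 3.59%. The log2 fold change was above 0 for 7 members and below 0 for 3, with a median of 0.034 beside −0.00330 over all tested genes.

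**Figure D2:**
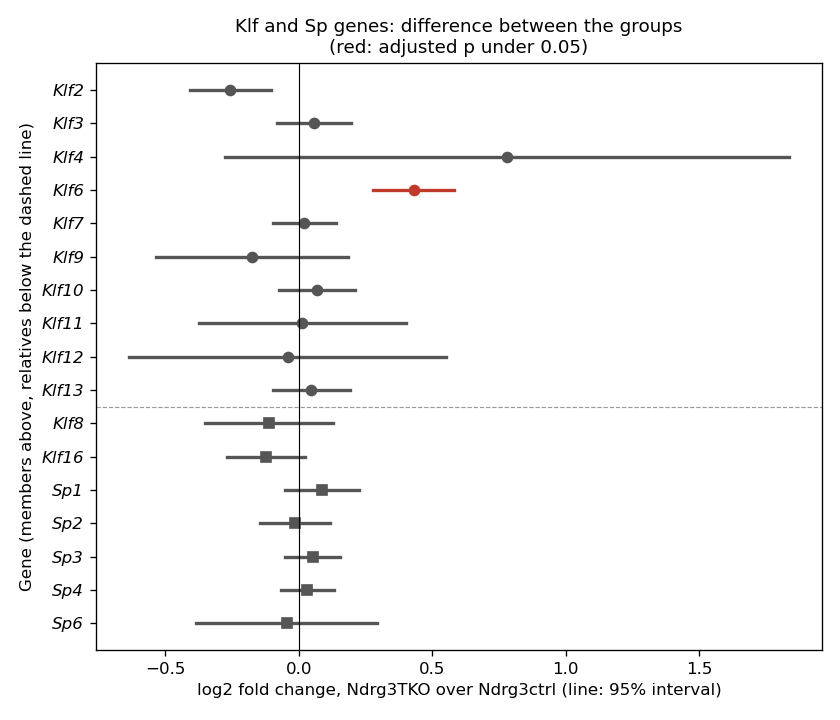
Log2 fold change of Ndrg3TKO over Ndrg3ctrl (x axis) with its 95% interval for the 10 Klf genes (circles) and the 7 tested Klf and Sp relatives (squares), red where the adjusted p passed 0.05. Klf6 (0.28 to 0.58) was the 1 called gene, and the interval of Klf2 (−0.41 to −0.10) also excluded 0.

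Of the 16 other genes of the Klf and Sp family, 7 passed the filter and 0 were called by edgeR or by DESeq2, with 0 at an unadjusted p below 0.05. Over all tested genes edgeR called 1.15%, and 10.9% had an unadjusted p below 0.05. Their log2 fold changes were −0.11 for Klf8, −0.12 for Klf16, 0.088 for Sp1, −0.014 for Sp2, 0.052 for Sp3, 0.033 for Sp4 and −0.045 for Sp6. Sp1 and Sp3, which bind GC boxes at many promoters, were thus abundant factors with intervals that spanned 0 (−0.050 to 0.23 and −0.052 to 0.16). Klf14, Klf15, Klf17, Sp5, Sp7 and Sp8 had 0 counts in every library, below the 3 counts taken as the floor.

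Per length of exon, in RPKM (here TMM-scaled CPM divided by the exonic length in kilobases), the order of the levels differed from that of the counts. Klf2 led the family with 180 ± 15.99 RPKM in Ndrg3ctrl and 151 ± 12.1 in Ndrg3TKO (SD, n = 4 each). Klf13 followed with 123 ± 7.17 and 127 ± 7.96. Klf2 lay above Klf13 in every library, since the lowest Klf2 level was 139 and the highest Klf13 level 136. The length is the union of all annotated exons, 1847 bases for Klf2 (1 transcript) and 7531 for Klf13 (4 transcripts). The transcripts used in these cells were not measured, so the order between genes rests on these lengths.

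Below them, after Sp3 and Sp1, came Klf3 with 24.2 ± 1.87 RPKM in Ndrg3ctrl. Klf7 (12.8 ± 0.589), Klf6 (10.6 ± 1.05) and Klf10 (10.1 ± 0.272) formed a middle group in which neighbours overlapped over the 8 libraries. In Ndrg3TKO Klf6 had 14.3 ± 0.750 RPKM and a higher mean than Klf7 (13.04 ± 0.799). It was above Klf7 within each Ndrg3TKO library, and its range there (13.6 to 15.0) did not overlap that of Klf10 (9.61 to 11.8). Klf11 had 2.30 ± 0.286 RPKM in Ndrg3ctrl, Klf9 0.631 ± 0.107, Klf12 0.170 ± 0.0593 and Klf4 0.108 ± 0.102. The ranges of Klf12 and Klf4 overlapped, while Klf9 lay above both in all libraries. As a share of the summed RPKM of the family, Klf2 made up 33.9% of the Ndrg3ctrl mean and 29.3% of the Ndrg3TKO mean, and Klf6 2.00% and 2.78%.

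**Figure D3:**
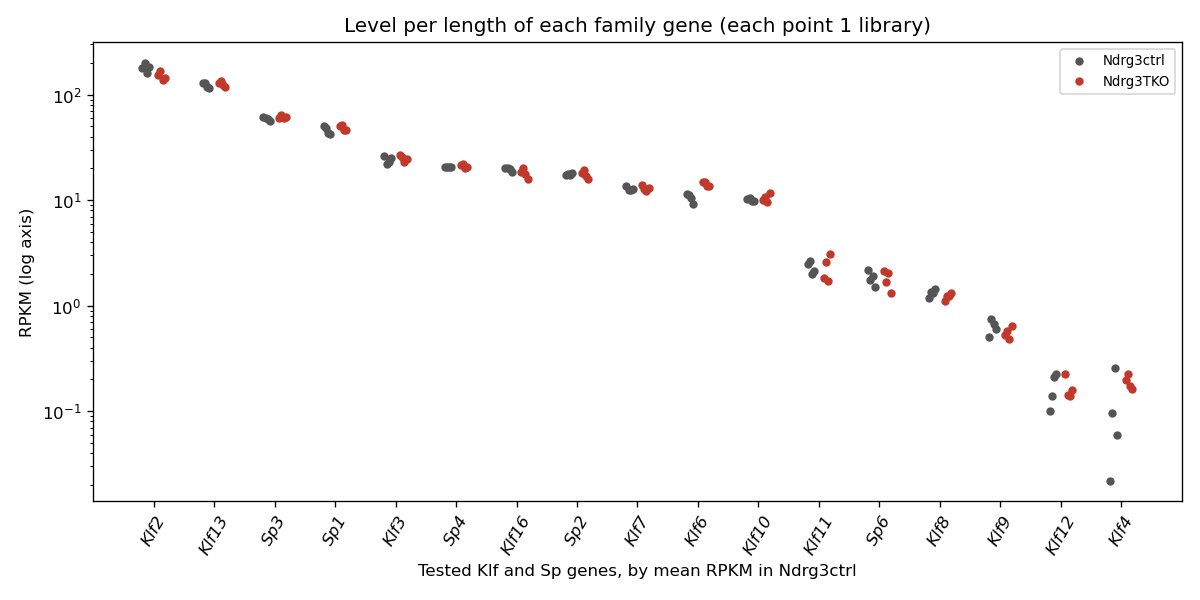
RPKM on a log axis for the 17 tested Klf and Sp genes, ordered by their mean in Ndrg3ctrl, with 1 point per library (Ndrg3ctrl grey, Ndrg3TKO red). Klf2 and Klf13 stood above 116 RPKM in every library, and Klf12 and Klf4 reached at most 0.255.

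Among the 9 genes known to act downstream of Klf factors in T cells, 8 were tested and 2 were called, both lower in Ndrg3TKO (0.355% of all tested genes were called lower). The list was chosen with earlier results of these data known, so its counts are a description and not a test. Ccl5, a chemokine gene activated by Klf13, had 37.8, 39.8, 33.3 and 32.8 normalized counts in Ndrg3ctrl and 4.79, 4.54, 7.73 and 9.77 in Ndrg3TKO. The groups were far apart and the log2 fold change was −2.39 (adjusted p = 6.03e-04, edgeR), while Klf13 itself had a log2 fold change of 0.047. Cxcr3, a chemokine receptor gene whose product rises in Klf2-deficient T cells, had 64.0, 51.2, 40.1 and 44.4 in Ndrg3ctrl and 16.3, 17.3, 14.5 and 19.5 in Ndrg3TKO. It fell by 1.55 on the log2 scale (adjusted p = 0.00356, edgeR), again without overlap. Cdkn1a, too low to be tested, went the other way without overlap. It had 2, 4, 4 and 6 counts in Ndrg3ctrl and 7, 13, 13 and 13 in Ndrg3TKO.

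Genes for thymic exit and lymph node homing were abundant and were not called, although some were under other fits. S1pr1, the sphingosine-1-phosphate receptor gene that Klf2 activates, averaged 11453 ± 813 normalized counts in Ndrg3ctrl and 10040 ± 462 in Ndrg3TKO (log2 fold change −0.19, 95% interval −0.32 to −0.061, adjusted p = 0.203 by edgeR). Ccr7, a lymph node homing receptor gene included in the list, averaged 12595 ± 1318 and 10499 ± 701 (−0.26, interval −0.42 to −0.10). S1pr1 overlapped between the groups, and Ccr7 did so by a small margin, with 11310 in Ndrg3ctrl 4 and 11368 in Ndrg3TKO 2. With the presence of Y-linked counts as a term, 6 of the 8 genes were called, against 2.99% of all tested genes in that fit, among them Ccr7 (adjusted p = 0.0186, edgeR) and S1pr1 (0.0307). With no filter on low counts 3 were called, Ccr7 being added (adjusted p = 0.0223, edgeR), against 1.11% of all genes in that fit. Itgb7, an integrin gene, had a log2 fold change of 0.0065. In the downstream list 6 of 8 had an unadjusted p below 0.05, beside 10.9% of all tested genes, and the median log2 fold change was −0.22. These values too describe a list chosen with earlier results known.

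**Figure D4:**
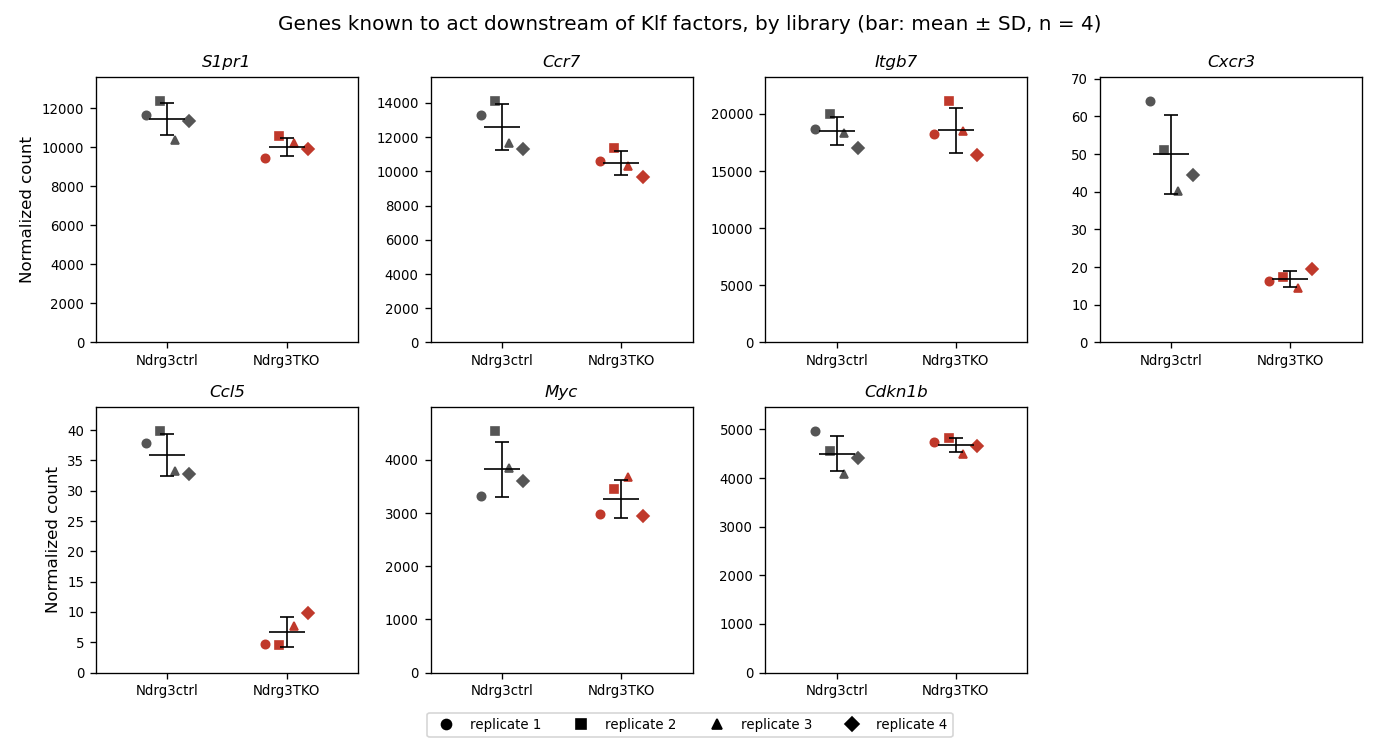
Normalized counts (y axis, from 0) of 7 tested genes known to act downstream of Klf factors, by library (Ndrg3ctrl grey, Ndrg3TKO red, shape for the replicate number, bars for mean ± SD). Cxcr3 and Ccl5 were separated between the groups, with Ccl5 at 32.8 to 39.8 in Ndrg3ctrl and 4.54 to 9.77 in Ndrg3TKO, and the other 5 overlapped.

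Of 15 genes known to act upstream of Klf2 and its relatives, 14 were tested and 0 were called by edgeR or DESeq2, with 2 at an unadjusted p below 0.05. The edgeR shares over all tested genes were 1.15% called and 10.9% at an unadjusted p below 0.05. Foxo1, which induces Klf2 in naive T cells, had a log2 fold change of 0.15 (95% interval 0.027 to 0.28), opposite in sign to that of Klf2. Tgfbr2, a TGF-beta receptor gene, had −0.15 (interval −0.28 to −0.016). Mef2d and Elf4, the latter an activator of Klf4 in CD8 T cells, had 0.060 and 0.0033.

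Of 10 cofactor genes, 9 were tested and 0 were called by edgeR or DESeq2, with 1 at an unadjusted p below 0.05 (Ep300, 0.14). Ctbp1, the partner of Klf3 and Klf12, had a log2 fold change of −0.0034, Sin3a 0.037 and Crebbp 0.077. Of 4 genes for ubiquitin ligases or their subunits that act on Klf proteins, 0 were called by edgeR or DESeq2. Wwp1, which ubiquitinates Klf2, had the 1 unadjusted p below 0.05 in this list (0.0224), with 1334, 1277, 1483 and 1452 normalized counts in Ndrg3ctrl and 1514, 1486, 1524 and 1693 in Ndrg3TKO. Its Ndrg3TKO libraries lay just above its Ndrg3ctrl libraries, as those of 3.44% of all tested genes did. Beside both lists, edgeR called 1.15% of all tested genes, and 10.9% had an unadjusted p below 0.05.

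As Klf6 and other members are early response genes, 18 immediate early genes were examined beside them. Of these, 17 were tested and 1 was called, against 1.15% of all tested genes (0.355% called lower). It was Egr1, which fell from 6011 ± 685 to 4471 ± 475 normalized counts (SD, n = 4 each), a log2 fold change of −0.43 (adjusted p = 0.0422, edgeR). Zfp36 also lay lower in Ndrg3TKO without overlap (−0.19, adjusted p = 0.102 by edgeR). Ier2 had a lower mean with overlapping groups (−0.26, adjusted p = 0.158 by edgeR). Fosb, scarce at 33 to 85 counts, was higher (0.56, adjusted p = 0.337 by edgeR). Egr1, Zfp36, Ier2 and Fosb were the 4 of 17 at an unadjusted p below 0.05, against 10.9% of all tested genes. Only Fosb among them was higher. The call of Egr1 was lost, in the edgeR fit, without Ndrg3ctrl 1, 2 or 3 or without Ndrg3TKO 2, 3 or 4, with an adjusted p of at most 0.134. The list's log2 fold changes were below 0 for 12 of 17 genes, with a median of −0.13, and its summed level was 1384 to 1691 CPM in Ndrg3ctrl and 1325 to 1545 CPM in Ndrg3TKO. Jund (0.091), Btg2 (−0.015), Ier5 (0.043) and Nr4a1 (−0.13), the most abundant others, were not called.

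The Klf genes also varied from library to library within the groups. After subtracting group means from the log2 CPM, Klf10 and Klf11 deviated together over the 8 libraries (Pearson r = 0.966, exact permutation p = 0.00347; Spearman rho = 0.952, p = 0.0139). Without the 2 libraries farthest from the median of Klf10, r was 0.968. Klf3 and Klf7 had r = 0.873 (exact permutation p = 0.00868) and rho = 0.881 (p = 0.0104), and r = 0.842 without the 2 farthest. Klf6 and Klf13 had r = 0.808 (exact permutation p = 0.0191) and rho = 0.786 (p = 0.0347), and 0.910 without the 2 farthest. Of the 45 pairs 4 had a Pearson p below 0.05 and 0 passed adjustment, the lowest adjusted p being 0.156 for Pearson's r and 0.312 for Spearman's rho, so none held after correction. The 2-sided test enumerated the 576 rearrangements within groups, and 0.00174 was the smallest p it could give. Klf2 and Klf6, whose log2 fold changes had opposite signs, had r = 0.377 within them (exact permutation p = 0.425; rho = 0.452, p = 0.304). The test treated the libraries of a group as exchangeable. An effect shared by same-numbered libraries would remain after subtracting group means. Klf13 deviated by 0.067, 0.078, −0.067 and −0.079 in Ndrg3ctrl 1 to 4 and by 0.041, 0.104, −0.045 and −0.100 in Ndrg3TKO 1 to 4. Klf12 deviated by −0.45, −0.15, 0.27 and 0.33, and by 0.32, −0.13, −0.16 and −0.034. The part of such an effect in these coefficients was not tested.

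**Figure D5:**
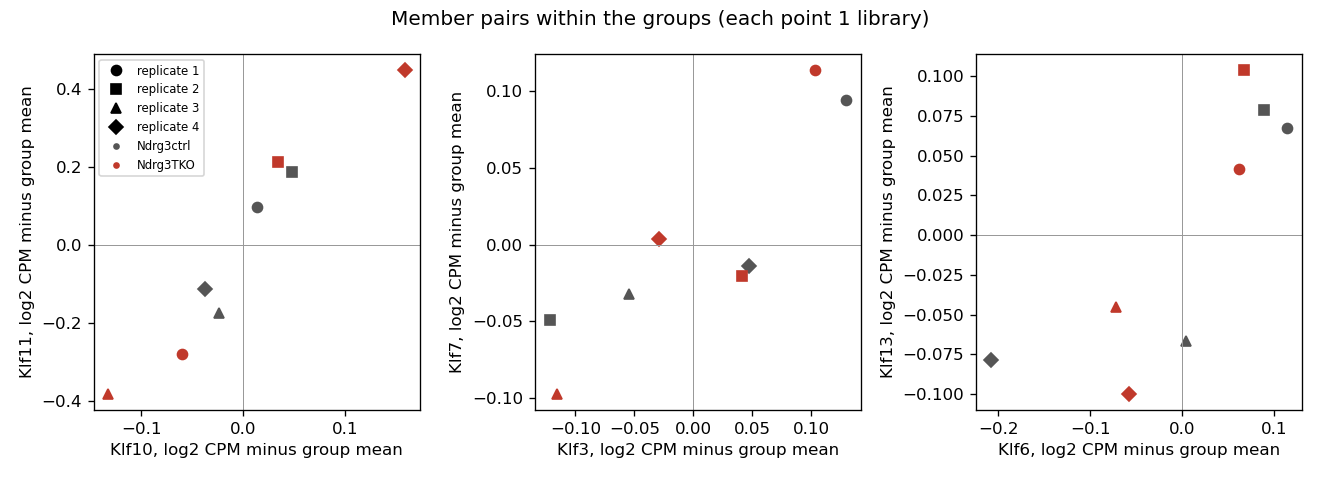
Deviation from the group mean in log2 CPM for 3 member pairs, with 1 point per library (Ndrg3ctrl grey, Ndrg3TKO red, shape for the replicate number). Klf10 and Klf11 fall close to a rising line (r = 0.966), Klf3 and Klf7 less closely (r = 0.873) and Klf6 and Klf13 least (r = 0.808).

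Over the 8 libraries without subtraction of group means, the genes most like Klf2 in log2 CPM were Mmd (Pearson r = 0.984), Axin1 (r = 0.980) and Bin1 (r = 0.980). For Klf6 they were Tesc (r = 0.985), G3bp2 (r = 0.982) and Stt3b (r = 0.979). These were picked as the highest of all tested genes and share the group difference and the libraries, so the coefficients are a description.

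Promoter sequence is shown for the same pair of genes, Klf6 and Klf2, since their log2 fold changes had opposite signs. The runs are the bases just upstream of the annotated starts, from RefSeq promoter windows (GRCm38.p6, plus strand for both), and capitals mark GGGCGG, the GC box bound by Sp factors, or CCGCCC on the other strand. Klf6 (chr13:5861239-5861481) has a single GC box in this stretch and Klf2 (chr8:72318812-72319032) has 2, and CACCC or GGGTG, the core of many Klf sites, occurs in neither.
Klf6: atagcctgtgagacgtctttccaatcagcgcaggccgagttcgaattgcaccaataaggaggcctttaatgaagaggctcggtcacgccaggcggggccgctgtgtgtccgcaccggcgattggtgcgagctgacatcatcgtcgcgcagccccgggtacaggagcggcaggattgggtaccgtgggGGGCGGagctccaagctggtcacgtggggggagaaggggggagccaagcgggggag
Klf2: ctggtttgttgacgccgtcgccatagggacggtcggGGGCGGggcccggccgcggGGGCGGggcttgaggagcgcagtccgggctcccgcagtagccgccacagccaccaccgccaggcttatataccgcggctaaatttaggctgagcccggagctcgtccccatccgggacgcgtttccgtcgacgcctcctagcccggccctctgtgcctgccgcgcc

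The stretches are GC-rich, at 64.2% for Klf6 and 71.5% for Klf2. Over the 300-base windows of the 9 members with an entry (all but Klf10), CACCC on either strand was present in 6 of 9, against 57.5% of the 32851 promoters in the table, and GGGCGG in 7 of 9, against 35.7%. The forkhead letters TGTTTAC occurred in 1 of 9, that of Klf9, against 3.65% of all promoters, the Egr letters GCGTGGGCG in 0 against 0.612%, and the cAMP response element TGACGTCA in 0 against 1.79%. The CACCC and GGGCGG matches can overlap, and all are matches of letters and not measured binding. The promoters in the table were not matched to the members for GC content, which bears on GC-rich letters such as GGGCGG. The windows of Klf7 and Klf12 lie inside the GENCODE genes, downstream of their outermost annotated starts.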

How the data were processed

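RNA had been sequenced from sorted thymic CD8SP cells of 8 mice (Illumina Stranded Total RNA with Ribo-Zero Plus). Processing by the authors used the snakePipes pipeline, with cutadapt for trimming, STAR for alignment to GRCm38.p4 (GENCODE M9) and featureCounts for counting. They deposited raw counts per gene, without normalization. The strand setting and the handling of reads with several matches are not given in the sources used here. Groups were taken from the sample labels, and each replicate is described there as biological.

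Counts were analysed with edgeR 4.0.16 in R 4.3.3: filterByExpr by group, TMM factors, a robust quasi-likelihood fit over all 14633 remaining genes and Benjamini-Hochberg adjustment, with a threshold of 0.05. Standard errors and 95% intervals came from the same fit. RPKM used exon lengths of GENCODE M21, which matched 98.7% of the genes. Alternatives were DESeq2 1.42.0, relative log expression factors, other count filters, a replicate block, a term for Y-linked counts and leaving out each library. The fit was tested on simulated data in 3 runs. It recovered 96.3% of changes of 1 on the log2 scale and 77% of changes of 0.5. Of the genes called there, 6.46% were false. Smaller changes, and changes in genes with the lowest counts, were not simulated. Intervals cover the spread between mice as estimated by the fit. The Klf genes and the gene lists were chosen with earlier results of these data known. Named were every Klf gene, every tested relative, each called gene of the other lists with up to 4 more of the highest counts, and the 3 genes most alike to Klf2 and to Klf6; other genes were named after their values were seen. A gene of the downstream list is counted in that list's totals but is not reported here.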

Additional observations from a re-analysis of the deposited data

Results flagged for a closer look

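Of 92 groups of 4 libraries checked (41 genes and 5 library measures, in both genotypes), 4 had such a library by Dixon's criterion, where chance gives about 1 in 20, and none of the 4 was a Klf gene. Klf4 in Ndrg3ctrl 3 (22.5 normalized counts against 1.94, 8.53 and 5.29) did not reach the criterion. Ctbp1 stood apart in Ndrg3ctrl 2 with 7281 normalized counts, and Ier5 in Ndrg3TKO 2 with 3769. The mitochondrial share was low in Ndrg3ctrl 4, at 0.636%. The Y-linked level was high in Ndrg3ctrl 2, at 353 CPM.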

How the results depend on the processing

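Klf6 passed the threshold under every alternative tried, with a log2 fold change of 0.36 to 0.47. Klf2 passed it with no filter on low counts (−0.25, adjusted p = 0.0207), with Y-linked counts as a term (−0.28, 0.0323) and with the replicate block (−0.26, 4.72e-04), so 2 Klf genes were called in these 3 fits; with DESeq2 its adjusted p was 0.0583. The number of genes called over all tested was 168, and became 309 with DESeq2 (191 higher, 118 lower), 274 with no filter (176 and 98), 437 with the Y-linked term (262 and 175) and 90 to 158 with a library left out. Immediate early genes called numbered 2 with DESeq2 and with no filter, 3 with the Y-linked term and 0 to 1 with a library left out. Downstream genes called numbered 1 when 10 counts were required in every library, where Ccl5 and Klf4 were no longer tested, 3 with no filter and 6 with the Y-linked term. The causes of these shifts were not tested.

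The replicate number was tried as a block. Deviations of same-numbered libraries correlated at 0.240, 0.512, −0.0572 and 0.387 for numbers 1 to 4. Numbers 1, 2 and 4 were each other's best match while number 3 was not, so the numbers were not taken to pair the mice. Ndrg3TKO 3 correlated most with Ndrg3ctrl 2 (0.194). The labels do not say whether libraries were prepared in sets, and an effect of sets was not tested apart from this block. The block gave 800 called genes (435 higher, 365 lower, 164 shared with the 168), 5 downstream (among them Ccr7, adjusted p = 6.07e-04, and S1pr1, 0.0167, edgeR), 2 upstream and 3 immediate early genes, and Klf11 at −0.019.

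Genes near 0 changed sign. With the Y-linked term these were Klf12 (0.063), Itgb7 (−0.040), Elf4 (−0.016) and Itch (−0.00630). With a library left out the ranges were −0.019 to 0.055 for Klf7, −0.16 to 0.14 for Klf11, −0.24 to 0.12 for Klf12, −0.060 to 0.032 for Sp2, −0.14 to 0.076 for Sp6, −0.061 to 0.062 for Itgb7, −0.024 to 0.029 for Elf4, −0.027 to 0.032 for Ctbp1, −0.027 to 0.024 for Itch, −0.032 to 0.00644 for Fbxw7, −0.065 to 0.044 for Btg2 and −0.015 to 0.094 for Ier5. Klf4 and Klf12 had at most 23 and 47 counts in a library, and Klf4 was 1.74 without Ndrg3ctrl 3.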
